A study of Homo sapiens with 6 samples.

Results

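INSIG1, DHCR7, NSDHL, SQLE and VLDLR are 5 of the 14884 genes that could be given a value and 1 name on these arrays. They were chosen by their difference between the RKIP shRNA and control arrays in the deposited log2 signals, so their own differences are described here without a test. For each gene the brightest named row of the table was taken, and each of the 5 had only 1 such row. The first 4 fit the label of cholesterol synthesis and SREBP feedback genes by their known roles. VLDLR encodes a lipoprotein receptor, which is neither a synthesis enzyme nor part of the sterol sensor.

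The 3 RKIP shRNA arrays held RNA of THP-1, a human monocytic leukaemia cell line, after its cells had been transduced with a lentiviral vector expressing a short hairpin RNA against RKIP. The 3 control arrays held RNA of THP-1 cells given the same vector without a hairpin. Both groups were selected in and kept on puromycin at 1.5 µg/mL, so both carried a vector and the drug. PEBP1 encodes RKIP, a protein known to bind RAF and hold back MEK signalling, and the comparison asked which genes its knockdown regulates. The labels call the arrays biological replicates without saying whether they stem from separate transductions, so the errors and p-values below measure the spread between these arrays and may be technical in part. The labels do not say how many hairpins were used, nor whether cells were clones or pools.

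Cells make cholesterol from acetyl-CoA, first through mevalonate to prenyl diphosphates and then through squalene to the sterols. When sterols are plentiful, INSIG proteins hold SCAP and its cargo, the SREBP transcription factors, in the endoplasmic reticulum. When sterols run low, SCAP carries SREBP to the Golgi, where proteases release the active factor that switches on synthesis and uptake genes. INSIG1 is itself such a target gene, which closes the loop. SREBP2, from SREBF2, is known mainly for cholesterol genes, and SREBP1, from SREBF1, mainly for fatty acid genes. Promoters that answer to SREBP commonly need NF-Y, which binds CCAAT boxes, or SP1, which binds GC boxes, beside the sterol element.

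The 250 bases before the annotated start of the 4 members found in the RefSeq promoter table (GRCh38.p14) are printed because INSIG1, DHCR7 and NSDHL were higher and VLDLR lower in RKIP shRNA cells. They run 5′ to 3′ on the strand of the gene, and capitals mark matches on either strand to CCAAT or GGGCGG. The INSIG1 stretch is chr7:155297628-155297877 (plus strand), DHCR7 is chr11:71448394-71448643 (minus strand), NSDHL is chrX:152830813-152831062 (plus strand) and VLDLR is chr9:2621537-2621786 (plus strand).
INSIG1: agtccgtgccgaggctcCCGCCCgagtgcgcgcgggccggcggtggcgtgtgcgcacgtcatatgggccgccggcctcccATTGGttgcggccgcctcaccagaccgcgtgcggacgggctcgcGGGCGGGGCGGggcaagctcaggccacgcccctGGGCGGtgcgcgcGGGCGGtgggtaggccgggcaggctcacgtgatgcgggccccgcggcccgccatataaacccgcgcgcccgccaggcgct
DHCR7: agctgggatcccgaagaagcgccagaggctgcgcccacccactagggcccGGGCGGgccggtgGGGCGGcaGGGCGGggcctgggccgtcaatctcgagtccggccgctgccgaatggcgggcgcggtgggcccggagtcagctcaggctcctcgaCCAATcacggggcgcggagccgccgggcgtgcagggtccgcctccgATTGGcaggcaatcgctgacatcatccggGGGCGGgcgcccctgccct
NSDHL: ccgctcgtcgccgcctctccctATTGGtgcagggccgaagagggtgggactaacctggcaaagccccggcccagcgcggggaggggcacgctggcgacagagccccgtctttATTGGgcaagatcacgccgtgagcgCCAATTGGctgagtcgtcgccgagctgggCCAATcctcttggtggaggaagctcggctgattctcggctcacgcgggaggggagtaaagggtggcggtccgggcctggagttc
VLDLR: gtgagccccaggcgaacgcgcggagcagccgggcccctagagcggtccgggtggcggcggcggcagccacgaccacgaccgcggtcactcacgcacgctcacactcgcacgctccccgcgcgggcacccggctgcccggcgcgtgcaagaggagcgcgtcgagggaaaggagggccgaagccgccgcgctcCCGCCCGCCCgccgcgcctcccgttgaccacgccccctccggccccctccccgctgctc

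The 3 promoters of genes that were higher differed in which box they held. NSDHL had 5 CCAAT matches and no GC box, of which a pair on opposite strands overlapped. DHCR7 had 2 CCAAT matches and 4 GC boxes. INSIG1 had 1 CCAAT match and 5 GC boxes before the start, a pair of them sharing a base. VLDLR had 0 CCAAT matches and 2 overlapping GC boxes. A second annotated DHCR7 start, upstream of the printed one, had neither box.

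**Figure D1:**
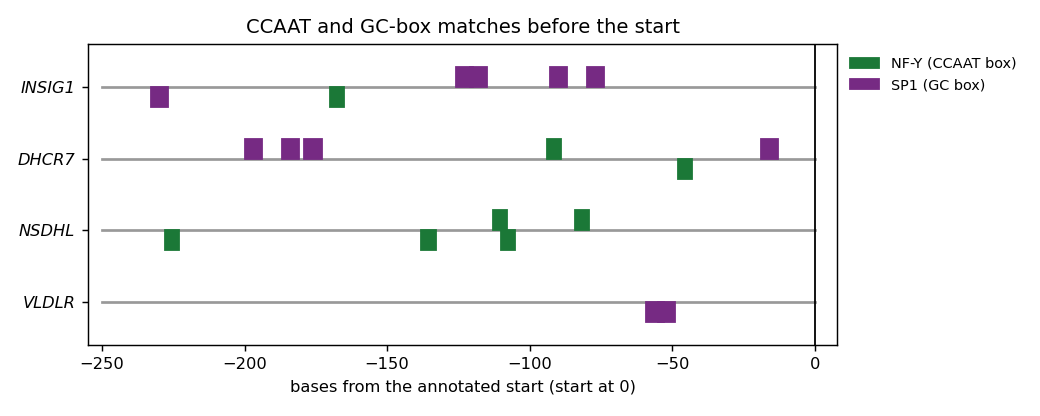
Matches to CCAAT (NF-Y) and GGGCGG (SP1) in the 250 bases before the annotated start of 4 genes; the horizontal axis gives bases from the start, boxes above a line are on the strand of the gene and boxes below it on the opposite strand. INSIG1, DHCR7 and NSDHL hold 1, 2 and 5 CCAAT matches and VLDLR holds 0.

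Over windows of 250 bases before to 50 after the start, CCAAT was found in 34.6% and GGGCGG in 45.0% of the 35116 promoters of the table, which also holds non-coding genes. Among 15 promoters of 12 other cholesterol synthesis genes with a value, 73.3% held CCAAT and 93.3% held GGGCGG. Among 16 promoters of 10 other genes of sterol sensing and uptake, 31.2% held CCAAT and 75.0% held GGGCGG. Alternative starts of a gene count separately in these shares, and RNF145 alone gave several of the 16, most of them without CCAAT. The genes with CCAAT at any start were SREBF2, RNF145, MYLIP, STARD4 and TMEM97. The sterol element searched, TCACNCCAC, matched 1.13% of all promoters, 0 of 5 member promoters and 0 of 15 of the other synthesis genes, and the SREBF2 promoter held 1 match. The C/EBP-ATF element TGATGNAAN matched 3.61% of all promoters and 0 of 5 member promoters. No match means only that these letters are not in this window. The printed promoters had a GC content of 66.8% for NSDHL, 75.2% for DHCR7, 78.4% for INSIG1 and 78.8% for VLDLR, and the contribution of base composition to the GC box counts was not tested.

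The arrays of a group lay close together: over named genes, pairs correlated at r = 0.994 to 0.996 within a group and 0.987 to 0.988 between groups (correlations across genes, with genes no independent replicates). The targeted gene checked the labels. PEBP1 had log2 signals of 8.25, 8.18 and 8.24 in RKIP shRNA cells, against 9.52, 9.77 and 9.75 in control cells. In log2 terms PEBP1 fell by 1.46 (SE 0.09, limma adjusted p = 0.000228), and the exact two-sided permutation test gave p = 0.10, the smallest that 3 arrays against 3 allow. Of 6 myeloid markers with a value, SPI1, CD68, LYZ and MPO rose, where 10.0% of all genes tested were called higher and 10.2% lower (limma adjusted p under 0.05). The MPO call was lost on leaving out each of the 6 arrays in turn (adjusted p up to 0.11). CSF1R, at 0.22 with overlapping groups, did not pass, although it did without RKIP shRNA replicate 2 (0.44), and CD14 was dim in both groups, under the 4.07 that is the median of all rows. The mean log2 signal of these 6 spanned 7.88 to 8.08 in RKIP shRNA arrays and 7.31 to 7.33 in control arrays, and its part in the results below was not tested. In such bulk RNA, a changed share of cells and a changed level per cell cannot be told apart. Marker lists of other cell types had few values: 3 for T cells, 4 for epithelium and 1 each for B cells, fibroblasts and erythroid cells. Of these 10, CD5 was called higher at 0.39 (limma adjusted p = 0.049) and KRT18 lower at -0.29 (limma adjusted p = 0.022). CD5 kept its call only without control replicate 3 and KRT18 only without RKIP shRNA replicate 2 or 3 (adjusted p otherwise up to 0.14 and 0.082), and KRT18 had -0.13 as the mean of its rows. The mean log2 signal of the T cell markers spanned 4.74 to 4.86 in RKIP shRNA and 4.54 to 4.81 in control arrays, that of the epithelial markers 5.25 to 5.33 in RKIP shRNA and 5.26 to 5.39 in control arrays.

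INSIG1, the sterol-regulated brake on SREBP, was higher in every RKIP shRNA array than in any control array. Its log2 signals were 10.32, 10.22 and 10.24 in RKIP shRNA cells and 9.74, 9.68 and 9.68 in control cells. The groups did not overlap, and the lowest RKIP shRNA value stood 0.48 above the highest control value. The log2 difference of 0.56 (SE 0.07) corresponds to a 1.48-fold level. INSIG1 ranked 409 of 14884 genes when these were ordered from the largest rise down.

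SQLE, DHCR7 and NSDHL are enzymes of the sterol arm of the pathway. SQLE, the squalene epoxidase that begins sterol ring formation and is a control point of the route, gave 9.57, 9.46 and 9.69 in RKIP shRNA cells and 9.07, 9.10 and 8.95 in control cells (log2 signals). Its groups did not overlap, but its RKIP shRNA arrays were the most spread of the 5 genes, with replicate 2 lowest and replicate 3 highest. The log2 difference was 0.54 (SE 0.09), or 1.45-fold.

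NSDHL, a dehydrogenase that helps remove methyl groups from the sterol ring, gave log2 signals of 8.40, 8.33 and 8.33 in RKIP shRNA cells against 7.90, 7.74 and 7.64 in control cells. Here the spread lay in the control arrays, whose SD was 0.13 against 0.04 in RKIP shRNA arrays. The groups stood 0.43 apart at their nearest values. Its log2 difference of 0.59 (SE 0.08), or 1.51-fold, was the largest of the 5 members, at rank 357 of all genes.

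DHCR7, the reductase that makes cholesterol in the last step of one branch, gave 8.94, 8.94 and 8.90 in RKIP shRNA cells and 8.51, 8.42 and 8.47 in control cells (log2 signals). Both groups were tight, with an SD of 0.02 in RKIP shRNA and 0.05 in control arrays, and they did not overlap. The log2 difference was 0.46 (SE 0.06), or 1.37-fold. It was the smallest of the 4 higher members in log2 terms. Against the pooled SD the differences were 12.9 times for DHCR7, 12.4 for INSIG1, 6.15 for NSDHL and 5.37 for SQLE. These ratios rest on SDs of 3 arrays per group in the contrast that chose the members, so they are no test and no ranking.

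VLDLR, the very low density lipoprotein receptor, went the other way. It gave log2 signals of 9.18, 9.12 and 9.15 in RKIP shRNA cells against 9.50, 9.67 and 9.68 in control cells. Control replicate 1 was the lowest control array and still stood 0.32 above the highest RKIP shRNA array. The log2 difference was -0.47 (SE 0.08), which is 72.4% of the control level, and it ranked 890 of 14884 from the largest fall down.

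**Figure D2:**
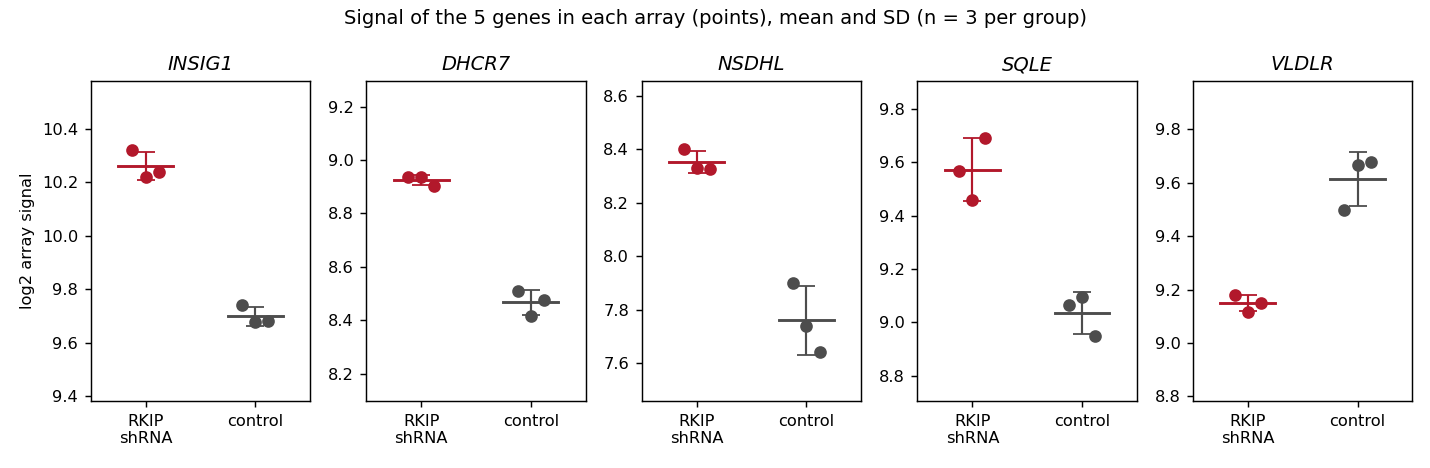
Log2 array signal of the 5 genes (vertical axes, each spanning the same log2 range) in the 3 RKIP shRNA and 3 control arrays; points are arrays, the long line is the mean and the bar the SD. INSIG1, DHCR7, NSDHL and SQLE lie higher and VLDLR lower in RKIP shRNA arrays, and no gene has overlapping groups.

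All 5 members lay well above the median of all rows in both groups, so none was dim. Groups that do not overlap were common: the RKIP shRNA arrays lay all above the control arrays for 19.8% of genes and all below them for 18.1%. The median log2 difference over all genes was 0.02. Over the 6 arrays, INSIG1 correlated with DHCR7 at r = 0.99 and with SQLE at r = 0.96, and VLDLR with NSDHL at r = -0.99. These values describe 6 arrays in 2 separate groups and mainly carry the group difference that chose the members.

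By the same measure, the genes whose mean over all arrays reached the median of all rows and whose pattern was most like the mean of INSIG1, DHCR7, NSDHL and SQLE were IL1RL1, DHX29 and MED11, at r = 0.9998, 0.9993 and 0.9987 over 6 arrays. IL1RL1, an interleukin receptor gene, was dim in control cells, with log2 signals of 5.56, 5.39 and 5.54 in RKIP shRNA cells against 4.03, 3.84 and 3.67 in control cells, so it reached that median only through the RKIP shRNA arrays. DHX29, a helicase of translation initiation, had a log2 difference of 0.36 and MED11, a Mediator subunit, 0.50. The patterns most like VLDLR were those of ZBTB34, UBR2 and TMT1A, at r = 0.998, 0.994 and 0.994. Such likeness was frequent, since 843 of 9680 genes reached r of at least 0.95 to the 4-gene mean and 541 of 9683 to VLDLR.

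The other enzymes of the pathway were read from a list of 23 synthesis genes, 3 of them members. Of the 13 other genes with a value, 5 rose, 0 fell and 8 did not pass (limma, Benjamini-Hochberg adjusted p under 0.05 over all genes). At an unadjusted p under 0.05, 9 were higher and 2 lower, where 4806 of all 14884 genes had such a p in either direction. The 5 make 38.5% called higher, where 10.0% of all genes tested were called higher and 10.2% lower. None of the 13 was dim in both groups, whereas the shares over all genes here and below include dim genes. The list was also chosen with earlier results of these data known, so its counts beside those shares are description only. The median log2 difference of the 13 was 0.27, against 0.02 for all genes. For 9 of the 13 every RKIP shRNA array lay above every control array, with 2 the other way. Over all genes 19.8% lay all above and 18.1% all below, so the 2 are near that share. The remaining 7 genes of the list were not analysed here.

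In the mevalonate arm all 7 measured genes had positive log2 differences in the main fit and 4 passed, where 10.0% of all genes were called higher. PMVK, the phosphomevalonate kinase, rose most: it gave log2 signals of 6.47, 6.28 and 6.56 in RKIP shRNA cells and 5.73, 5.99 and 5.76 in control cells, a difference of 0.61 (SE 0.11, limma adjusted p = 0.0076). Its groups stood 0.30 apart. MVK, the mevalonate kinase one step before it, rose by 0.35 (limma adjusted p = 0.019). IDI1, the isopentenyl diphosphate isomerase, rose by 0.37 (limma adjusted p = 0.023), and FDPS, the farnesyl diphosphate synthase, by 0.34 (limma adjusted p = 0.020). A second FDPS row had a log2 difference of 0.55.

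The entry enzymes did not pass in the main fit. HMGCS1, which makes HMG-CoA, had a log2 difference of 0.27 (limma adjusted p = 0.10), and ACAT2, the thiolase before it, 0.25 (limma adjusted p = 0.060), both with groups that did not overlap. Both passed with the trended and robust prior (adjusted p = 0.018 for HMGCS1 and 0.0069 for ACAT2). ACAT2 also passed with dim genes left out (adjusted p = 0.026) and without RKIP shRNA replicate 2 (adjusted p = 0.037). MVD, the decarboxylase between PMVK and IDI1, gave overlapping groups and a difference of 0.06 (SE 0.12), which was -0.02 without control replicate 2. Only PMVK of the 4 called mevalonate genes kept its call whichever array was left out. MVK lost it without control replicate 2 or 3 or RKIP shRNA replicate 2 or 3 (limma adjusted p up to 0.062), IDI1 without control replicate 2 or 3 or RKIP shRNA replicate 1 or 3 (up to 0.081), and FDPS without control replicate 1 or 3 or RKIP shRNA replicate 1 or 3 (up to 0.072). With the replicate block, MVK (adjusted p = 0.060) and FDPS (adjusted p = 0.062) also lost their calls.

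The sterol arm was mixed outside the members. EBP, the sterol isomerase, gave log2 signals of 9.67, 9.70 and 9.57 in RKIP shRNA cells against 9.20, 9.16 and 9.11 in control cells, and rose by 0.49 (SE 0.07, limma adjusted p = 0.0038). In the main fit it was the only 1 of 6 other sterol genes to pass, and it kept its call whichever array was left out. ERG28, a scaffold of the demethylating enzymes, had a log2 difference of 0.31 (limma adjusted p = 0.064). It passed with the trended and robust prior (adjusted p = 0.0065), with dim genes left out (adjusted p = 0.031) and without control replicate 1 (adjusted p = 0.036). The sterol reductase gene LBR stood at 0.16 and the methyl oxidase gene MSMO1 at 0.14, and neither passed in the main fit. LBR passed with the trended and robust prior (adjusted p = 0.0063).

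A pair of sterol genes had negative differences. HSD17B7, the ketoreductase that works beside NSDHL in the same demethylation, gave 6.59, 6.25 and 6.60 in RKIP shRNA cells against 6.91, 6.77 and 6.76 in control cells, a log2 difference of -0.33 (limma adjusted p = 0.086). TM7SF2, which encodes a reductase for the same step as LBR, stood at -0.21 (limma adjusted p = 0.054). Both had groups that did not overlap, and neither passed. With dim genes left out of the fit both passed (2 lower), and HSD17B7 also with the trended and robust prior (adjusted p = 0.032).

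**Figure D3:**
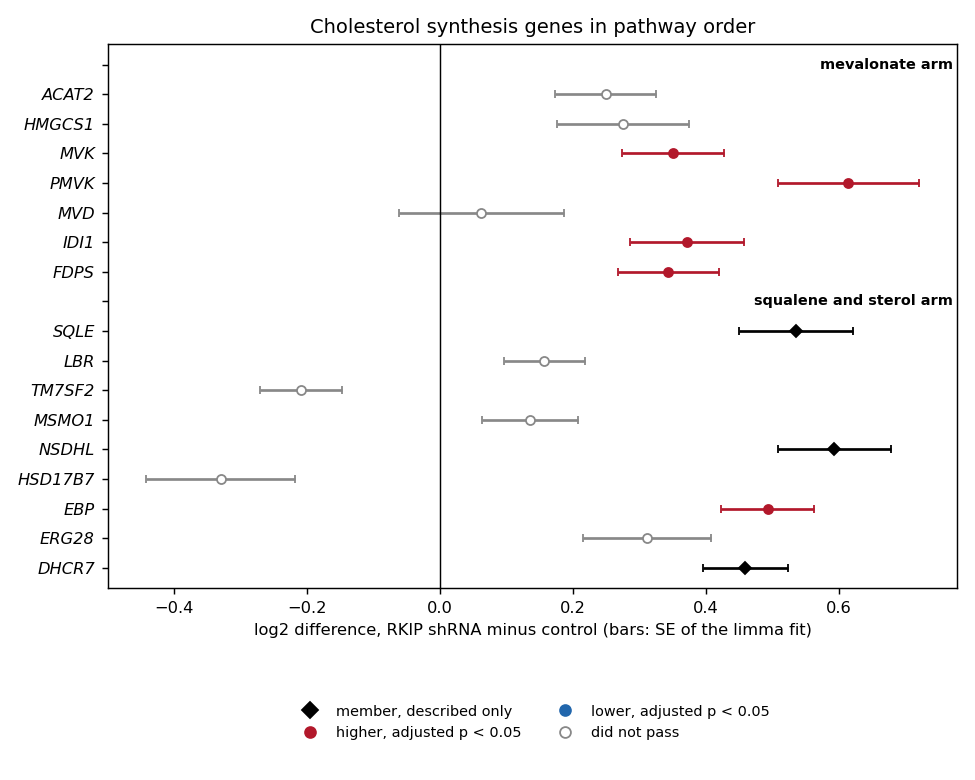
Log2 difference, RKIP shRNA minus control (horizontal axis, bars are the SE of the limma fit), of 16 cholesterol synthesis genes, listed roughly in pathway order within 2 arms. All 7 mevalonate genes lie right of 0, MVD with a bar that crosses it, whereas TM7SF2 and HSD17B7 of the sterol arm lie left of it.

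Of 6 other measured genes of SREBP processing, 0 rose by the limma test, 3 fell and 3 did not pass, with a median log2 difference of -0.11. Over all genes 10.0% were called higher, so 0 of 6 is near that share, and 10.2% were called lower. None of the 6, INSIG2, SREBF2, RNF145, SREBF1, SCAP and RNF139, was called higher at an unadjusted p under 0.05 or by the adjusted p of any alternative tried. INSIG2, the paralogue of INSIG1 that is less dependent on SREBP, gave 6.71, 6.54 and 6.67 in RKIP shRNA cells against 6.96, 7.06 and 7.12 in control cells. In log2 terms it fell by 0.41 (SE 0.08, limma adjusted p = 0.013), with groups 0.25 apart, and kept its call whichever array was left out.

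SREBF2, the gene of the factor that drives cholesterol genes, gave log2 signals of 9.59, 9.71 and 9.52 in RKIP shRNA cells against 9.88, 9.90 and 9.86 in control cells. It fell by 0.28 (SE 0.07, limma adjusted p = 0.037), with groups that did not overlap. Its call was lost without any 1 of control replicates 1, 2 and 3 or RKIP shRNA replicates 1 and 3 (adjusted p up to 0.11). The SREBF2 call was also lost with quantile normalisation (adjusted p = 0.051) and with the replicate block (adjusted p = 0.075). RNF145, a ubiquitin ligase known in mouse liver to act on SCAP, fell by 0.26 (limma adjusted p = 0.049), a call lost on leaving out each of the 6 arrays in turn (adjusted p up to 0.15). Median centring (adjusted p = 0.063) and the replicate block (adjusted p = 0.10) also lost it.

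SREBF1, SCAP and RNF139 did not pass. SREBF1 had a log2 difference of 0.16 (SE 0.09), with overlapping groups. SCAP, the escort of SREBP, stood at 0.13 (SE 0.07) and RNF139, a ligase of the endoplasmic reticulum, at 0.04 (SE 0.06).

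Around VLDLR, 5 other genes of lipoprotein uptake and cholesterol handling had a value, of which 1 rose and 0 fell by the limma test, with 2 lower at an unadjusted p under 0.05. Counts this small are near the 10.0% and 10.2% called higher and lower over all genes. LRPAP1, the chaperone that keeps lipoprotein receptors from binding ligand early, rose by 0.62 (SE 0.07, limma adjusted p = 0.0021). It gave log2 signals of 7.01, 7.06 and 6.96 in RKIP shRNA cells against 6.42, 6.30 and 6.46 in control cells, the opposite side from VLDLR. MYLIP, the ubiquitin ligase that degrades VLDLR and its relatives, had a log2 difference of -0.18 (limma adjusted p = 0.10). It passed with the trended and robust prior (adjusted p = 0.021) and with dim genes left out (adjusted p = 0.043).

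STARD4, a cytosolic sterol carrier, stood at -0.22 (SE 0.09), TMEM97, a sterol-responsive membrane protein gene, at 0.03 and the receptor gene LRP1, near the median of all rows, at 0.09. None of these passed in the main fit, and STARD4 did with the trended and robust prior (adjusted p = 0.043). Over sensing and uptake together, 1 of 11 other genes rose, near the 10.0% of all genes, and 3 fell, against 10.2%. The RKIP shRNA arrays lay all above the control arrays for 2 of the 11, near the 19.8% of all genes, and all below for 5, against 18.1%. The remaining 12 genes of both lists were not analysed here.

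VLDLR is also known, in mouse liver, to be induced through the ATF4 arm of the integrated stress response. Of 9 other measured genes of that arm 5 fell and 0 rose (limma adjusted p under 0.05; 7 lower and 0 higher at an unadjusted p under 0.05), where 10.2% of all genes were called lower, 10.0% higher and 4806 of 14884 had an unadjusted p under 0.05. Their median log2 difference was -0.29. Like the other lists, this list was chosen with earlier results of these data known, so its counts beside those shares are description only. The 5 were ATF5 at -2.33, TRIB3 at -1.31, DDIT3 at -0.61, ASNS at -0.52 and ATF3 at -0.29. Of these ATF3 lost its call on leaving out any array but control replicate 1 (adjusted p up to 0.095). It also lost the call with quantile normalisation (adjusted p = 0.064) and with the replicate block (adjusted p = 0.063). ATF4 itself at -0.28 did not pass (limma adjusted p = 0.051), but did with quantile normalisation (-0.35, adjusted p = 0.010), with the trended and robust prior (adjusted p = 0.0025), with dim genes left out (adjusted p = 0.022) and without RKIP shRNA replicate 3 (adjusted p = 0.032). Their part in the VLDLR difference was not tested.

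Fatty acid synthesis genes, known as targets of SREBP1, rose in part. Of 9 with a value, 4 rose and 1 fell, with a median log2 difference of 0.11. Over all genes 10.0% were called higher and 10.2% lower, so the 1 lower gene is near that share. FASN, the fatty acid synthase, gave 9.33, 9.33 and 9.36 in RKIP shRNA cells against 8.48, 8.07 and 8.21 in control cells, and rose by 1.09 (SE 0.11, limma adjusted p = 0.0011), which is more than any of the 5 members. ACACA, the acetyl-CoA carboxylase, rose by 0.38, ACLY, which makes cytosolic acetyl-CoA from citrate, by 0.36, and the desaturase gene FADS2 by 0.43 on the log2 scale. SCD, ELOVL6, FADS1 and LPIN1 stood between -0.02 and 0.11 and did not pass. A second SCD row had a log2 difference of 0.32, the mean of both rows 0.21, and SCD passed with the trended and robust prior (adjusted p = 0.040).

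ACSS2, which makes acetyl-CoA from acetate, gave 7.28 on average in RKIP shRNA cells and 8.05 in control cells. In log2 terms it fell by 0.77 (SE 0.07, limma adjusted p = 0.00092). ACLY and ACSS2, both sources of acetyl-CoA for the pathway, were thus called in opposite directions. All 5 of these calls held whichever array was left out.

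**Figure D4:**
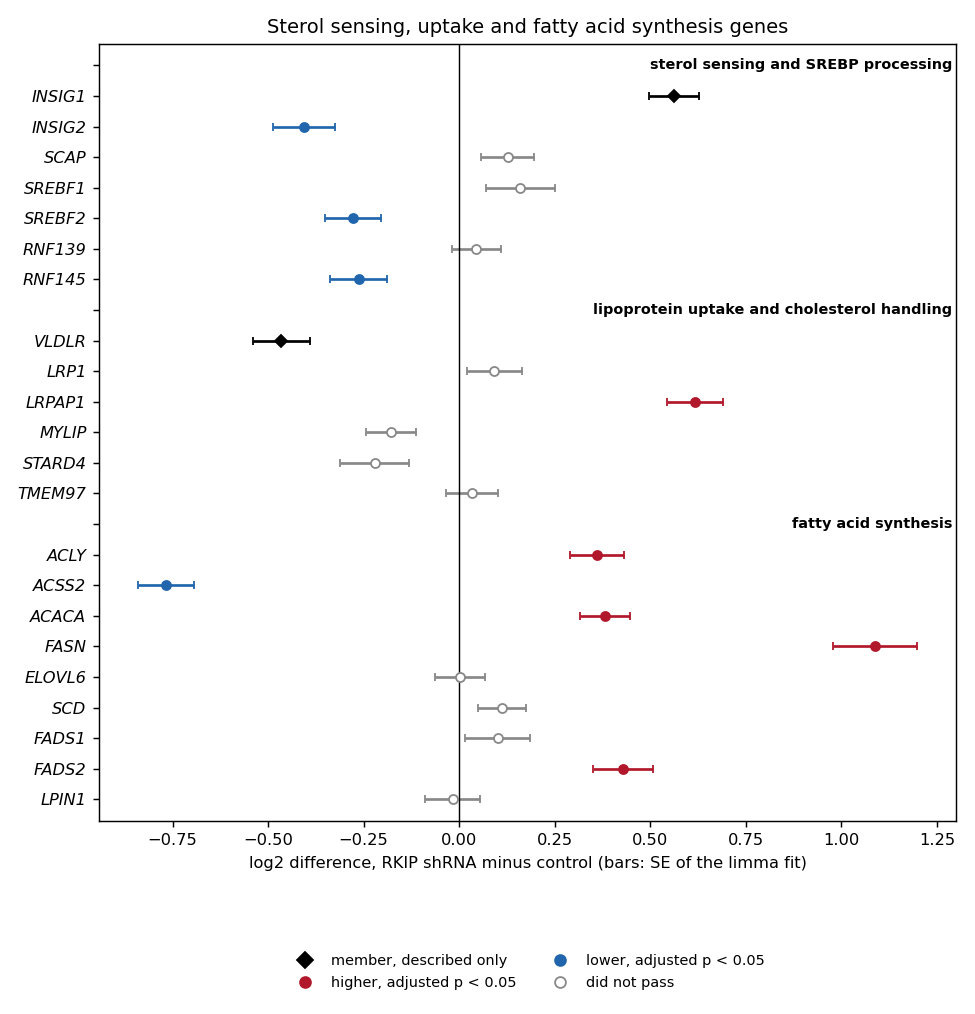
Log2 difference, RKIP shRNA minus control (horizontal axis, bars are the SE of the limma fit), of genes of sterol sensing, uptake and fatty acid synthesis. INSIG1 at 0.56 and INSIG2 at -0.41 lie on opposite sides of 0, as do LRPAP1 at 0.62 and VLDLR at -0.47, and ACLY at 0.36 and ACSS2 at -0.77.

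Few genes of efflux and ester storage had a value. LPCAT3, a phospholipid acyltransferase known as a target of the sterol-sensing LXR receptors, rose by 0.64 (SE 0.06, limma adjusted p = 0.0011) and was the 1 of 3 efflux-list genes that passed. NCEH1, which hydrolyses cholesterol esters, rose by 0.51 (limma adjusted p = 0.0026), the 1 of 4 on the ester list. With 10.0% of all genes called higher, lists of this size say little. APOE, the apolipoprotein E gene, lay the other way at -0.54, with groups that did not overlap and a dim level in RKIP shRNA cells. It did not pass (limma adjusted p = 0.084), but did without RKIP shRNA replicate 1 (-0.71, adjusted p = 0.034), with the trended and robust prior (adjusted p = 0.042) and with dim genes left out (adjusted p = 0.047).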

How the data were processed

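Labelled material prepared from 250 ng of total RNA per sample was measured on Affymetrix gene arrays, 3 per group. The values are log2 signals as deposited by the authors, a scale read from their range of 0.72 to 14.0. Array medians lay close together, at 4.06 to 4.10, which alone does not show normalisation. How probes were summarised and corrected, on which build, and whether and how arrays were normalised, is not given in the sources used here. Background and slide could therefore not be varied.

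The platform annotation gave 1 symbol to 16098 of 53617 rows and none to 37519, and all named rows matched RefSeq (GRCh38.p14) by gene number. The brightest row per gene was kept. RKIP shRNA minus control was fitted over 14884 genes with limma 3.58.1 (lmFit, eBayes) in R 4.3.3, adjusted by Benjamini-Hochberg, and 4806 genes had an unadjusted p under 0.05. The fit was also run on simulated data with 200 changed genes, and no result above rests on that run. The number of arrays limits the precision. Promoters came from RefSeq, motifs were searched on both strands, and figures used matplotlib 3.10.9.

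The members and the gene lists were chosen with earlier results of these data known. Named were PEBP1, the members, every measured gene of the synthesis, sensing and uptake lists, elsewhere the 4 called genes with the smallest p, and the 3 most similar patterns. ACLY, ATF3, ATF4, APOE, CD14, CSF1R and the fatty acid genes that did not pass were named outside this rule, after their values were seen. The alternatives tried were median centring, quantile normalisation, a replicate block, a trended and robust prior, leaving out dim genes, the mean of probes, a threshold of 0.01 and leaving out each array.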

Additional observations from a re-analysis of the deposited data

Results flagged for a closer look

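Some calls also fell outside the named genes. Among the 37519 rows that carry no gene name, limma called 937 higher and 1454 lower in RKIP shRNA cells (adjusted p under 0.05 over all rows of the table). These are smaller shares than the 10.0% and 10.2% among named genes, which were adjusted separately. None of them enters the results above, which is why they are given here.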

How the results depend on the processing

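The differences of INSIG1, DHCR7, NSDHL, SQLE, VLDLR and PEBP1 kept their direction under every alternative run, and those of the 5 members moved by less than 1 SD between arrays. Without any 1 array they spanned 0.53 to 0.58 for INSIG1, 0.43 to 0.48 for DHCR7, 0.53 to 0.66 for NSDHL, 0.48 to 0.59 for SQLE and -0.52 to -0.43 for VLDLR. Of the other cholesterol synthesis genes, the trended and robust prior called 9 higher and 1 lower. Leaving out dim genes called 7 higher and 2 lower. The replicate block called 3 higher and the 0.01 threshold 2 higher, and without any 1 array 2 to 5 were higher. Of the other sensing and uptake genes, 5 were lower with the trended and robust prior and 4 with dim genes left out. The replicate block called 1 lower and the 0.01 threshold 0, and without any 1 array 1 to 2 were lower. Over all genes the 0.01 threshold called 697 higher and 775 lower, and leaving out 1 array 963 to 1212 higher and 1018 to 1270 lower. Replicate numbers gave no pairing, since deviations of same-numbered arrays from their group means correlated at -0.02 to 0.02. Of 840 comparisons of a single listed gene under an alternative, 66 lost a call, 28 gained one and 0 reversed one. The cause of these shifts was not tested, apart from the fewer arrays or genes that some alternatives hold by construction.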
